A study of Mus musculus with 6 samples.

Results

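The semaphorin, plexin, neuropilin, ephrin and Eph receptor genes were selected by symbol from the gene count table of an RNA sequencing study of the mouse incisor. The symbols matched 52 of 25703 genes. Of these, 28 encode ligands (20 semaphorins and 8 ephrins), 22 encode receptors (9 plexins, 2 neuropilins and 11 Eph receptors), and 2 are antisense RNAs of Plxna4 whose symbols begin like that of their host. All 50 protein-coding members passed the filter on low counts and were tested, and neither antisense RNA did. No value measured here was used to choose them. The tissue was the proximal incisor of C57BL/6 mice at 6 weeks of age. The control group held 3 libraries of genotype Arid1a fl/fl, and the Arid1a cKO group held 3 of genotype Gli1-CreER;Arid1a fl/fl. The labels give the same tamoxifen course for every sample, given at 1 month of age over 3 days with 1.5 mg for every 10 g of mouse, and both groups carry the floxed Arid1a allele. Gli1-CreER is a recombinase made in cells that express the Hedgehog target Gli1, so that cells outside this lineage keep Arid1a, which encodes a subunit of SWI/SNF chromatin remodellers. Nothing in the labels says whether each library is a separate animal, so p-values measure only how these samples vary, and part of that may be technical.

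Semaphorins and ephrins are guidance cues that tell axons, vessels and migrating cells where to grow and where to stop. Class 3 semaphorins are secreted and mostly bind a neuropilin joined to an A plexin, whereas the semaphorins of classes 4 to 7 are held at the membrane and mostly bind plexins directly. A-type ephrins are anchored by a lipid and B-type ephrins span the membrane, and both bind Eph receptor tyrosine kinases on the neighbouring cell, which sorts cells across boundaries. In the tooth, semaphorin signals are known for keeping sensory axons out of the early germ, and ephrin and Eph genes are expressed in the dental mesenchyme and epithelium.

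The 6 libraries held 27300932 to 37908478 estimated counts. Arid1a itself was 222, 249 and 223 CPM (counts scaled to a common library size with TMM factors) in the controls and 136, 139 and 145 CPM in Arid1a cKO, in the order of replicates 1 to 3 that is kept throughout (log2 fold change -0.72, edgeR adjusted p = 0.00802). Reads from all its exons, floxed or not, enter this count. Control replicate 3 and Arid1a cKO replicate 1 had 3 and 2 counts in all from 4 Y-linked genes, against 5906 to 7495 in the other libraries, so that both sexes were present in each group. This bears on the X-linked members Efnb1, Plxna3 and Plxnb3. For 9 of the 50 members exons overlap those of a gene on the opposite strand (Efna3, Efna4, Epha1, Ephb1, Ephb4, Plxna1, Plxna4, Plxnb1 and Sema4c). Whether counting used strand was not stated, so that the values of these 9 may include reads of the other gene.

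Of the 50 guidance genes tested, 2 differed between the genotypes, and both were lower in Arid1a cKO. They were Efnb1, which encodes the ligand ephrin-B1, and Plxnd1, which encodes the semaphorin receptor plexin D1. This is 4.0% of the members, against 3.96% of all 19613 genes tested (1.5% higher and 2.46% lower), so that the share of calls in these families was that of the transcriptome. The test was edgeR's quasi-likelihood F test with Benjamini-Hochberg adjustment over all genes and a threshold of 0.05. Of the ligands 1 of 28 fell and 0 rose, with a median log2 fold change (Arid1a cKO over control) of -0.05. Of the receptors 1 of 22 fell and 0 rose, with a median of 0.12, where all genes tested had a median of 0.0043. An unadjusted p under 0.05 was more frequent among the members, at 19 of 50 (38%) against 22% of all genes, and this difference in share was not tested. Among the ligands 5 of these were on the higher and 6 on the lower side (39.3% of 28), and among the receptors 7 and 1 (36.4% of 22). The 3 control and 3 Arid1a cKO values did not overlap in 21 members (42% of the 50, against 29.1% of all genes), of which 13 were higher and 8 lower in Arid1a cKO (13.8% and 15.3% of all genes). Differences were small: 3 members, Plxnb3, Sema5b and Sema3e, had a difference over 1.5-fold (6%, against 12% of all genes), and none of these passed the test. The median absolute log2 fold change was nearly that of all genes (0.157 against 0.164). The members lay higher in level, at a median of 7.91 CPM per kb of exon against 4.24. The part of level in the shares of this paragraph was not tested.

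**Figure D1:**
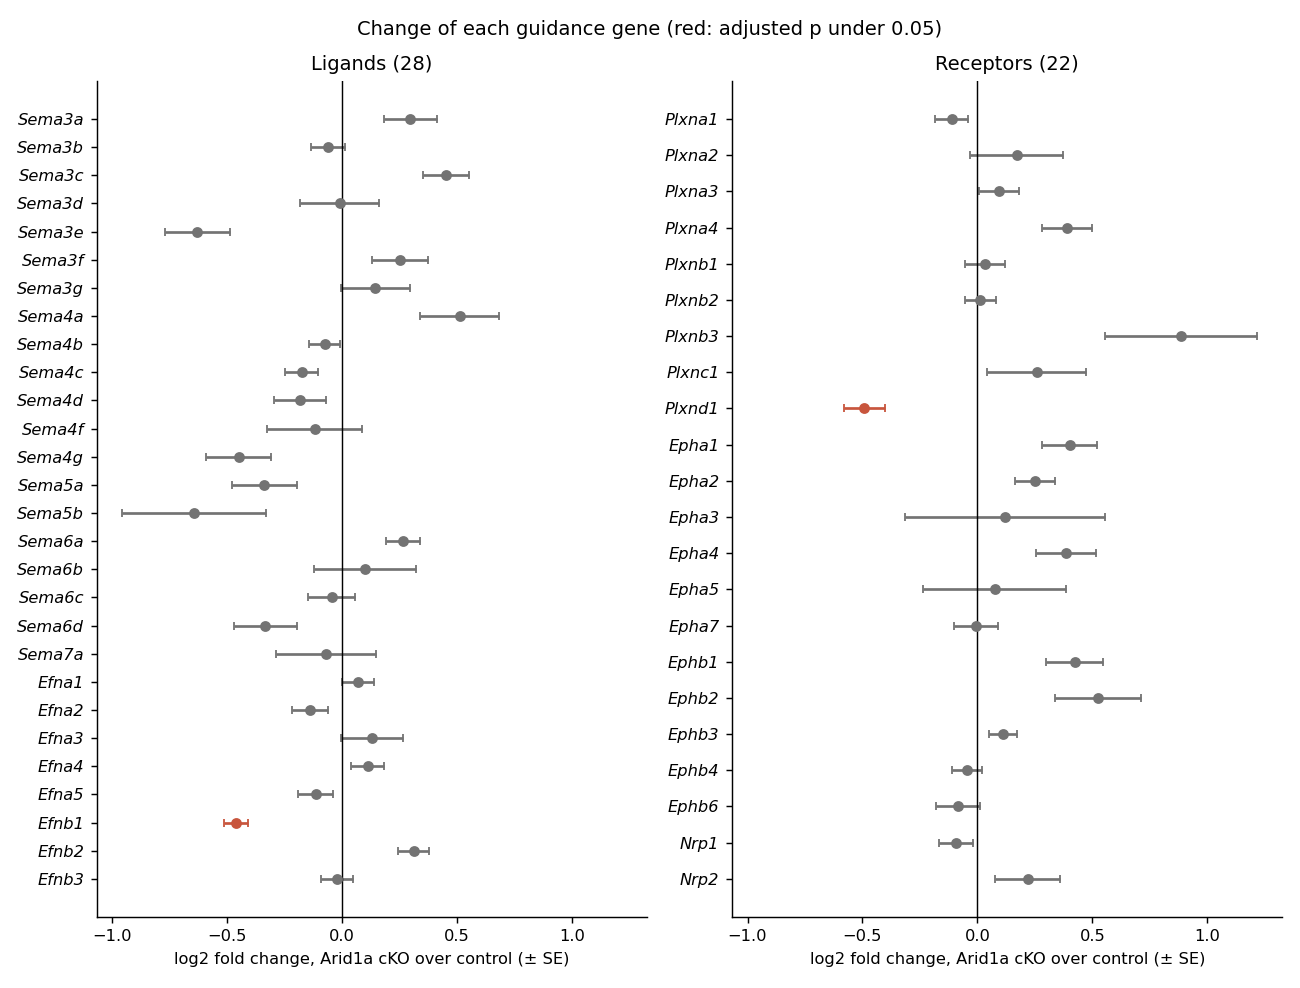
Log2 fold change of each of the 50 tested guidance genes in Arid1a cKO over control, with its SE as bars, for ligands on the left and receptors on the right. The 2 members past the threshold (red) are Efnb1 at -0.46 and Plxnd1 at -0.49, and the remaining 48 (grey) lie between -0.64 and 0.89.

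DESeq2 as the test called 10 members, 6 higher (Efnb2, Epha4, Ephb1, Plxna4, Sema3c and Sema4a) and 4 lower (Efnb1, Plxnd1, Sema3e and Sema4g), where it called 10.5% of all genes. The Efnb1 call held without each library in turn. Plxnd1 missed the threshold when any single control, or Arid1a cKO replicate 3, was left out (edgeR adjusted p from 0.0646 to 0.105).

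Of the 3 B-type ephrins 1, Efnb1, passed the test. Efnb1 (chromosome X, 99136130 to 99148991, mm10, plus strand) had 204, 203 and 197 CPM in the controls and 145, 148 and 145 CPM in Arid1a cKO. The values of a group lay within a few percent of each other and the groups were far apart. Mean levels were 201 ± 3.54 and 146 ± 2.07 CPM (SD, n = 3), so that Arid1a cKO was 1.38-fold lower, with a log2 fold change of -0.46 (SE 0.0526) and an edgeR adjusted p of 0.00949. In bulk tissue fewer cells that make an RNA and less RNA per cell cannot be told apart. In the 4 libraries with Y-linked counts, a choice made after seeing the data, the log2 fold change was also -0.46, with an adjusted p of 0.0523 by edgeR. The libraries without Y-linked counts, a control at 197 CPM and an Arid1a cKO library at 145 CPM, lay with their own groups.

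Efnb2 (chromosome 8, 8617434 to 8661242, minus strand), whose product marks arteries and binds Ephb4 on veins, had 78.1, 89.9 and 88.8 CPM in the controls and 104, 109 and 106 CPM in Arid1a cKO. All 3 Arid1a cKO values were above the controls, the opposite side from Efnb1, with a log2 fold change of 0.31 (SE 0.0683) and an edgeR adjusted p of 0.0501, just outside the threshold. Efnb3, the third member, was at 98.9, 105 and 92.4 CPM in the controls and at 91.5, 98.7 and 102 CPM in Arid1a cKO, and its groups overlapped (log2 fold change -0.02, SE 0.0707). Per kb of exon, Efnb1 was 5.19, 4.48 and 4.41 times as abundant as Efnb2 in the controls. This ratio, examined after the values were seen, was 2.76, 2.71 and 2.73 in Arid1a cKO, with no overlap (two-sided exact permutation p = 0.1, which is the floor for 3 against 3). The summed level of the 3 B-type ephrins was 99.1 to 105 CPM per kb in the controls and 85.8 to 89.9 in Arid1a cKO.

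The promoters of the genes just named, and of the Plxnd1 and Sema3e genes described further on, are shown because Efnb1 and Efnb2 had differences of opposite sign, and Plxnd1 and its ligand Sema3e of the same sign. Each is the 250 bases before the RefSeq start site, on GRCm38.p6 and on the strand of the gene, and the start of Efnb1 lies 69 bases upstream of the gene start given above. Capitals mark GC boxes (GGGCGG, on either strand), which 32.7% of 32851 such windows hold. Any window of Sema6a was left out of the count for the guidance genes. Of the 58 windows counted 43 (74.1%) hold a GC box, so its presence does not set the printed windows apart from the rest.
Efnb1, chrX:99135811-99136060, plus strand: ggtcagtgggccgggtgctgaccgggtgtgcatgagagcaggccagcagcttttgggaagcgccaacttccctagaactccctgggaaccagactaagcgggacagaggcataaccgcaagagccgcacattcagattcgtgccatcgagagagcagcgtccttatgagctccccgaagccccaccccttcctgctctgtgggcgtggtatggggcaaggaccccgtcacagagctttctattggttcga
Efnb2, chr8:8661243-8661492, minus strand: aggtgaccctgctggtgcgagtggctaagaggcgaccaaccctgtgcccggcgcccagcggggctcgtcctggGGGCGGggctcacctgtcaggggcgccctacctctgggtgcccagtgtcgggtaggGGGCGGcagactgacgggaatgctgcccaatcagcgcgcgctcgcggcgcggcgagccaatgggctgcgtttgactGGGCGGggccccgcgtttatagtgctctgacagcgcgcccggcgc
Plxnd1, chr6:115995006-115995255, minus strand: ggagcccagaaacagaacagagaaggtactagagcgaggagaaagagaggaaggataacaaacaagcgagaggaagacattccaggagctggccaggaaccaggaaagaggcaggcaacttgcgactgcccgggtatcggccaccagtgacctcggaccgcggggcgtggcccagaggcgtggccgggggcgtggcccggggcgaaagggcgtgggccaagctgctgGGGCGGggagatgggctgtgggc
Sema3e, chr5:14025026-14025275, plus strand: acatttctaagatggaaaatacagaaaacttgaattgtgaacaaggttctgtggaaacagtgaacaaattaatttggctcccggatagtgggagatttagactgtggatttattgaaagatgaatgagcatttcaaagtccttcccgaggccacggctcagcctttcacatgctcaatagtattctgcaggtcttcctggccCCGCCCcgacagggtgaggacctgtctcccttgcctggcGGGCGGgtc
The window of Efnb1 held 0 GC boxes and 13 CpG pairs, and that of Efnb2 held 3 and 27, with a GC content of 60% and 72%. Plxnd1 had 1 GC box and 16 CpG pairs (64.8% GC), and Sema3e had 2 and 7 (48% GC), where the median window held 6 CpG pairs at 52.4% GC. The letters of a TATA box (TATAAA, either strand) were found in the Efnb2 window, on the strand opposite to the gene. That window was the only 1 of the 58 counted for the guidance genes with this motif (1.72%), against 12.4% of all windows. The AP-1 motif TGANTCA, present in 6.75% of all windows, was in none of the 4. These are matches of letters in a short window and show no binding.

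**Figure D2:**
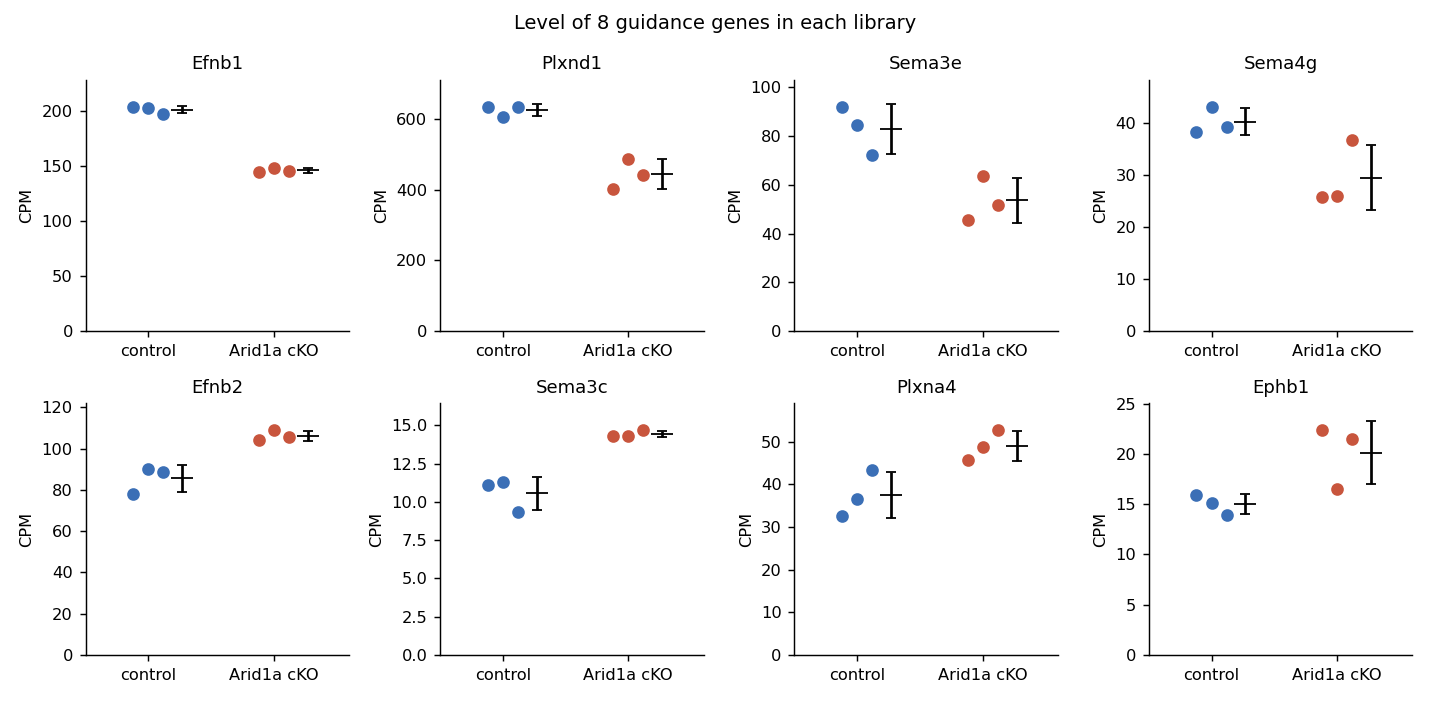
Level in CPM of 8 guidance genes in each of the 3 control (blue) and 3 Arid1a cKO (red) libraries, with the mean and SD in black. Efnb1 and Plxnd1 were past the threshold of the test. All 8 genes were picked, after the values were seen, from the 21 members whose groups do not overlap (42% of the 50, against 29.1% of all genes).

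None of the 5 A-type ephrins passed the threshold, and their log2 fold changes lay between -0.14 and 0.13. Efna1, the most abundant of them per kb and a ligand of Epha2, had 48, 41.3 and 44 CPM in the controls and 47.1, 46.7 and 46.1 CPM in Arid1a cKO, with overlapping groups (log2 fold change 0.07, SE 0.0693). Efna2 had the smallest p of the class and was at 18.3, 18.8 and 19.7 CPM in the controls and 16.8, 16.5 and 18.2 CPM in Arid1a cKO (log2 fold change -0.14, SE 0.0784, edgeR adjusted p = 0.337). Its groups lay apart by less than 0.1 CPM. Efna1, Efna3 and Efna4 lie side by side on chromosome 3, with gaps of 32.8 and 10.4 kb, and had log2 fold changes of 0.07, 0.13 and 0.11. Efna5 was at -0.12. The summed level of the 5 genes was 62.6 to 67.3 CPM per kb in the controls and 64.8 to 65.7 in Arid1a cKO.

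Among the 11 Eph receptors, none passed the threshold, 8 had a positive log2 fold change and 5 had Arid1a cKO values wholly above the controls (Epha1, Epha2, Epha4, Ephb1 and Ephb2), while 0 lay wholly below. Over all genes tested 13.8% lay wholly above and 15.3% wholly below, and 11 genes are too few to read a pattern from these counts. By DESeq2 2 of them passed, Epha4 and Ephb1. Epha4, a receptor for ephrins of both types, was the most abundant EphA gene per kb as the mean of all libraries. In the controls its mean of 9.02 CPM per kb was near those of Epha7 (8.99), Epha2 (8.86) and Epha3 (8.71). Epha4 had 61.2, 85.3 and 71.4 CPM in the controls and 92.4, 86.3 and 106 CPM in Arid1a cKO (log2 fold change 0.38, SE 0.13, edgeR adjusted p = 0.144). Control replicate 2 came within about 1 CPM of the lowest Arid1a cKO library. Epha1 had 8.6, 8.63 and 8.4 CPM in the controls and 12.8, 9.85 and 11.2 CPM in Arid1a cKO (log2 fold change 0.40, SE 0.12, edgeR adjusted p = 0.104). The gene on its opposite strand is Zyx. Ephb1 was at 15.9, 15.2 and 14 CPM in the controls and at 22.4, 16.5 and 21.5 CPM in Arid1a cKO, where replicate 2 was close to the controls (log2 fold change 0.42, SE 0.125, edgeR adjusted p = 0.103, and 0.0444 without Arid1a cKO replicate 2).

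Epha2 and Ephb2 had log2 fold changes of 0.25 (SE 0.0865) and 0.52 (SE 0.186). Ephb4, the venous receptor of ephrin-B2 and the most abundant Eph gene per kb, had 148, 163 and 145 CPM in the controls and 144, 146 and 151 CPM in Arid1a cKO, with overlapping groups. Its log2 fold change was -0.05 (SE 0.065) and turned to 0.02 without control replicate 2. The gene on its opposite strand is Zan. Epha3 varied most: its 3 controls were at 35.3, 105 and 86.5 CPM and its Arid1a cKO libraries at 102, 58.8 and 85.3 CPM, so that its log2 fold change of 0.12 had an SE of 0.436. Without single libraries it ranged from -0.22 to 0.44. Epha7, Ephb3 and Ephb6 lay between -0.08 and 0.11, and Epha5, below 1 CPM in all libraries, at 0.08 (SE 0.31).

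The 7 secreted class 3 semaphorins had none past the threshold, with differences of both signs. Sema3e, the class 3 member that binds plexin D1 without a neuropilin, had 92.1, 84.7 and 72.2 CPM in the controls and 45.7, 63.7 and 51.6 CPM in Arid1a cKO. The groups did not overlap, and the log2 fold change of -0.63 (SE 0.14) was the largest of the class in size, with an edgeR adjusted p of 0.0567. It passed with DESeq2, without Arid1a cKO replicate 2, and with the mean level of dental epithelium genes as a covariate. Sema3c, a cue for neural crest cells of the heart, lay on the other side: 11.1, 11.3 and 9.31 CPM in the controls and 14.3, 14.3 and 14.7 CPM in Arid1a cKO (log2 fold change 0.45, SE 0.101, edgeR adjusted p = 0.0524). It had the smallest p of the class, and passed with upper quartile normalization (0.049), with a minimum of 1 CPM in all libraries (0.0428) and with DESeq2 (0.0118).

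Sema3a, the classical repellent of sensory axons, had 18.5, 24.8 and 22.6 CPM in the controls and 25.3, 27.1 and 28.6 CPM in Arid1a cKO. The highest control was less than 1 CPM under the lowest Arid1a cKO library (log2 fold change 0.30, SE 0.114, edgeR adjusted p = 0.181). Sema3b, the most abundant class 3 gene per kb, had 53.8, 51.2 and 52.4 CPM in the controls and 55.1, 48.8 and 46.7 CPM in Arid1a cKO, with overlap (log2 fold change -0.06, SE 0.0741). The groups also overlapped for Sema3d (-0.01), Sema3f (0.25) and Sema3g (0.14), and in Sema3g Arid1a cKO replicate 1 stood apart at 42 CPM against 28.5 to 30.3 in the other libraries. Sema3d, Sema3a and Sema3e follow each other on chromosome 5 with gaps of 536.5 and 422.7 kb, yet had log2 fold changes of -0.01, 0.30 and -0.63.

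Of the 6 class 4 semaphorins 5 had a negative log2 fold change and none passed. Sema4g had 38.2, 43.2 and 39.3 CPM in the controls and 25.8, 25.9 and 36.7 CPM in Arid1a cKO, where replicate 3 was close to the controls (log2 fold change -0.45, SE 0.143, edgeR adjusted p = 0.123). Without that library it passed at -0.62 (adjusted p = 0.0466), and with DESeq2 it passed as well. Sema4c, the most abundant class 4 gene per kb and a ligand of plexin B2, had 69.8, 61.4 and 62.7 CPM in the controls and 54, 59.7 and 58 CPM in Arid1a cKO, narrowly apart (log2 fold change -0.17, SE 0.0717, edgeR adjusted p = 0.207). Sema4a, known for its part in immune cells and the retina, was the 1 class 4 gene on the higher side, with 19.6, 23.4 and 24.8 CPM in the controls and 39, 24.9 and 32.5 CPM in Arid1a cKO (log2 fold change 0.51, SE 0.171, edgeR adjusted p = 0.142). Sema4d, a ligand of plexin B1 made by osteoclasts and immune cells, was at -0.18 (SE 0.113), with control replicate 1 apart at 87.4 CPM against 62.9 to 70.6 in the other libraries. Sema4b and Sema4f were at -0.08 and -0.12 with overlapping groups.

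The 7 genes of classes 5 to 7 had none past the threshold. Sema5a, the most abundant semaphorin gene per kb, had 632, 510.1 and 563 CPM in the controls and 361, 510.3 and 478 CPM in Arid1a cKO. Control replicate 2 and Arid1a cKO replicate 2 were nearly equal, and the log2 fold change was -0.34 (SE 0.142, edgeR adjusted p = 0.219). Sema6a had the smallest p of these classes, at 34.9, 34.8 and 34.1 CPM in the controls and 40.6, 38.7 and 45.6 CPM in Arid1a cKO (log2 fold change 0.27, SE 0.0745, edgeR adjusted p = 0.0901). Its controls were tightly grouped and all below Arid1a cKO. Sema6d was on the other side at -0.34 (SE 0.137), with groups apart. Sema7a, which binds both plexin C1 and integrins, ranged from 30.3 to 56.8 CPM within the controls alone, against 38.5 to 43.4 CPM in Arid1a cKO (log2 fold change -0.07, SE 0.218). Sema6b and Sema6c lay at 0.10 and -0.05 with overlap, and Sema5b, at 0.63 to 1.52 CPM, at -0.64 (SE 0.314).

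Plxnd1 (chromosome 6, 115954811 to 115995005, minus strand), the plexin best known from vessel patterning, was the receptor that fell. It had 634, 605 and 635 CPM in the controls and 403, 488 and 442 CPM in Arid1a cKO, with a wide gap between the groups. Mean levels were 625 ± 16.9 and 444 ± 42.2 CPM (SD, n = 3), or 1.41-fold lower in Arid1a cKO, with a log2 fold change of -0.49 (SE 0.0889) and an edgeR adjusted p of 0.029. Of 14 endothelial markers 0 passed by edgeR (1 at an unadjusted p under 0.05), their median log2 fold change was -0.02, and their summed level was 758 to 886 CPM in the controls and 731 to 1039 CPM in Arid1a cKO. Of 13 markers of dental pulp and papilla mesenchyme 2 fell (Gli1, log2 fold change -0.52, edgeR adjusted p = 0.0162, and Pdgfrb, -0.44, 0.02) and 0 rose, their median was -0.24, and their summed level was 3589 to 3939 CPM in the controls and 3052 to 3237 CPM in Arid1a cKO. Only the Arid1a cKO genotype carries the Gli1-CreER driver, so that for every gene driver and Arid1a loss cannot be told apart. The part of the driver in the values of Gli1, Efnb1 and Plxnd1 was not tested. The lowest of these 13 markers, Barx1, was at 1.17 to 2.18 CPM. Of 10 markers of dental follicle and periodontal ligament 3 fell (Fmod, Col12a1 and Aspn), with summed levels of 2836 to 3075 CPM in the controls and 1832 to 1937 CPM in Arid1a cKO. The median of that list was 0.06, on the other side from its sum, and 5 of the 10 were positive. The part of either cell population in the falls of Plxnd1 and Efnb1 was not tested.

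Without Plxnd1 the 8 genes summed to 89.9 to 92.8 CPM per kb in the controls and 89.7 to 94.3 in Arid1a cKO, with overlap (exact two-sided permutation p = 0.7). Plxnd1 made up 49, 48 and 48.4% of the summed plexin level per kb in the controls and 37.4, 42.7 and 39.1% in Arid1a cKO. The share of Sema3e among the class 3 semaphorins was 23, 22.3 and 19.7% in the controls and 12, 17 and 14.5% in Arid1a cKO. Both shares were lower in every Arid1a cKO library than in any control (exact two-sided permutation p = 0.1 each, the floor for 3 against 3). They were examined after the values of Plxnd1 and Sema3e were seen, so that they add no support beyond the test of each gene. Sema3e itself did not pass the test.

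**Figure D3:**
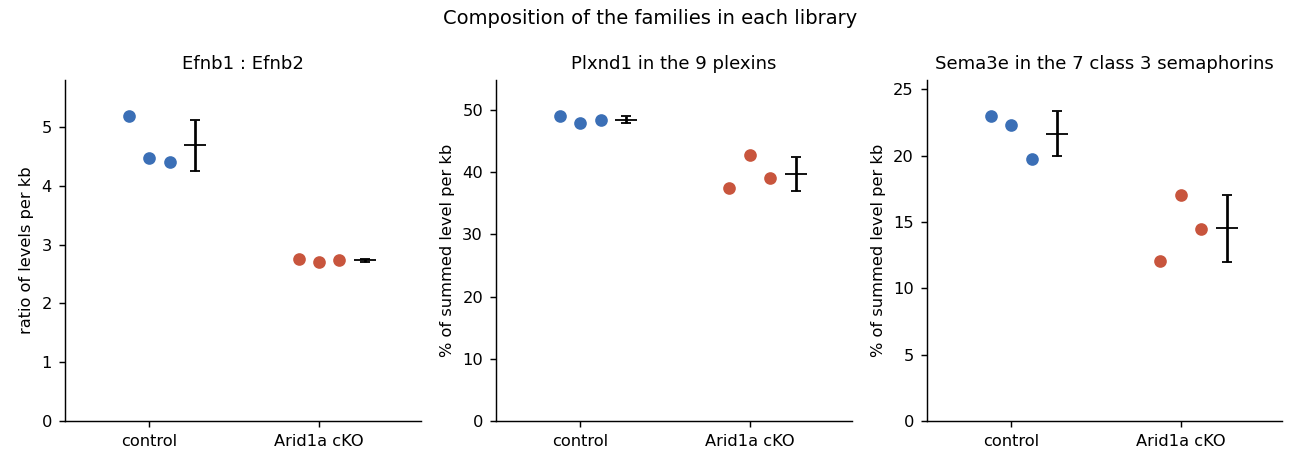
Ratio of Efnb1 to Efnb2 (left), share of Plxnd1 in the summed level of the 9 plexins (middle) and share of Sema3e in that of the 7 class 3 semaphorins (right), all from levels per kb, in each control (blue) and Arid1a cKO (red) library with the mean and SD in black. In each panel all Arid1a cKO libraries lie below all controls. These quantities were chosen after the values were seen.

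Plxna1, a receptor for class 3 and class 6 semaphorins and the most abundant A plexin per kb, had 264, 235 and 243 CPM in the controls and 220.1, 226 and 241 CPM in Arid1a cKO, with overlap (log2 fold change -0.11, SE 0.0719, edgeR adjusted p = 0.405). Plxna4, the partner of neuropilin 1 in the response to Sema3a, had 32.7, 36.5 and 43.4 CPM in the controls and 45.8, 48.8 and 52.7 CPM in Arid1a cKO (log2 fold change 0.39, SE 0.109, edgeR adjusted p = 0.0903, and 0.0229 with DESeq2). Plxna4os3, an antisense RNA whose exons overlap those of Plxna4, is not analysed here. The 2 antisense RNAs within introns of Plxna4 were below 0.5 CPM in all libraries. Plxna2 was at 66.6 to 80.5 CPM in 5 libraries and at 114 CPM in Arid1a cKO replicate 2. The 4 plexins Plxna3, Plxnb1, Plxnb2 and Plxnc1 had log2 fold changes of 0.09, 0.03, 0.01 and 0.26 with overlapping groups. Plxnb3, at 0.48 to 1.61 CPM, had the largest log2 fold change of all members (0.89, SE 0.331, edgeR adjusted p = 0.172).

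The neuropilins did not pass. Nrp2 had 101, 139 and 130.3 CPM in the controls and 160, 123 and 148 CPM in Arid1a cKO, with overlap (log2 fold change 0.22, SE 0.14, edgeR adjusted p = 0.407). Nrp1, the partner for Sema3a, was at -0.09 (SE 0.0759).

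Levels per kb of exon spanned from 0.039 to 73.2 CPM per kb as the mean of all libraries. Plxnd1 was the most abundant member (85.6 ± 2.32 CPM per kb in the controls and 60.9 ± 5.78 in Arid1a cKO, SD, n = 3), followed by Efnb1 (58.3 ± 1.03 and 42.3 ± 0.598), Plxnb2 (39.5 as the mean of all libraries), Ephb4 (32.2), Efnb3 (30.8), Sema5a (27.2), Plxna1 (26.3) and Efna1 (24.9). Over all 6 libraries the range of Plxnd1 overlapped that of Efnb1, whereas that of Efnb1 lay above Plxnb2, and Plxnb2 lay above Ephb4. From Ephb4 to Efna1 each range overlapped the next. The 2 members that fell were thus the 2 most abundant of the 50 per kb. In CPM not divided by length, Sema5a, Plxnb2 and Plxna1 were above Efnb1 in both groups. The 3 least abundant per kb, Plxnb3, Sema5b and Epha5, were below 0.25 CPM per kb in every library. Plxnd1 lay at the 97.2nd and Efnb1 at the 95.7th percentile of all genes tested by level per kb. The symbols Epha6, Epha8 and Epha10 are not analysed here.

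**Figure D4:**
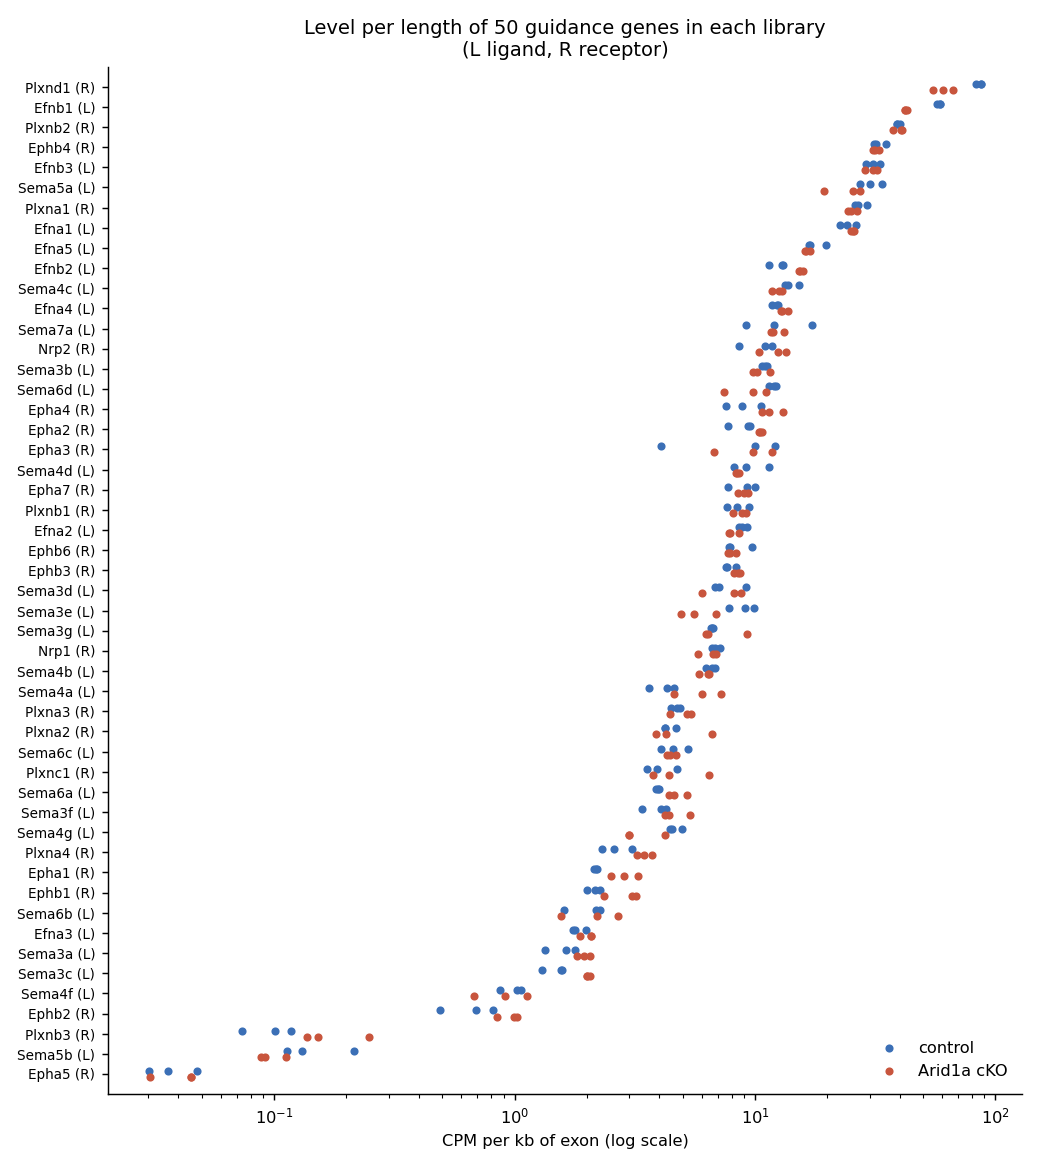
Level of each of the 50 tested guidance genes in CPM per kb of exon (log axis) in each control (blue) and Arid1a cKO (red) library, ordered by the mean of all libraries, from 73.2 for Plxnd1 to 0.039 for Epha5. The groups do not overlap in 21 of the 50 genes (42%, against 29.1% of all genes), among them Plxnd1, Efnb1 and Sema3c.

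Effectors and co-receptors of these families were lower where they passed, and of all genes tested 482 passed as lower and 295 as higher. Of 36 effectors and co-receptors of semaphorin and plexin signalling, 5 fell and 0 rose (median log2 fold change -0.10). This is 13.9% called, against 3.96% of all genes. The list was chosen with earlier results of these data known, so that its share is descriptive only. Its genes also lay higher, at a median of 12.2 CPM per kb against 4.24 for all genes. Their median SE was 0.0876 against 0.126, and the part of level in this share was not tested. Limk1, the kinase that inactivates the actin-severing protein cofilin, had 59.5 CPM as the control mean and 33.6 CPM in Arid1a cKO (log2 fold change -0.83, edgeR adjusted p = 0.00901). The cell adhesion gene Nrcam (-1.12, 0.0119), the small GTPase gene Rap1a (-0.42, 0.0163), Dpysl3 of the collapsin response mediator family (-0.50, 0.0321) and the integrin gene Itga1 (-0.39, 0.0466) fell as well. Tiam1 is in both effector lists. Without control replicate 1, 2 or 3 this count was 3, 2 and 3, without Arid1a cKO replicate 2 or 3 it was 3 and 2, and with DESeq2 it was 8. Of 28 effectors of ephrin and Eph signalling, 1 fell (3.57%) and 0 rose (median -0.04): the ubiquitin ligase gene Pdzrn3 (-0.53, edgeR adjusted p = 0.0201). That count was 0 when control replicate 1, control replicate 3 or Arid1a cKO replicate 3 was left out.

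In the other guidance families, 0 of 18 ligands passed by edgeR (3 with DESeq2), the smallest p being that of Slit3 (log2 fold change -0.31, adjusted p = 0.0612). Of 18 receptors tested, 2 rose and 1 fell. The netrin receptor gene Unc5c fell, from 363 to 179.7 CPM as group means (log2 fold change -1.02, edgeR adjusted p = 0.0247). The neurotrophin receptor gene Ntrk2 rose (0.43, 0.029), as did Dscam (2.49, 0.0409), which stayed below 1 CPM in every library. The fall of Unc5c did not pass when control replicate 1, control replicate 2 or Arid1a cKO replicate 3 was left out (0 lower). Neither rise passed when control replicate 1, control replicate 3, Arid1a cKO replicate 2 or Arid1a cKO replicate 3 was left out (0 higher). Without Arid1a cKO replicate 1 the count of higher receptors was 1. Shares of calls in these lists stand beside 3.96% of all genes, and the lists were chosen with earlier results of these data known.

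**Figure D5:**
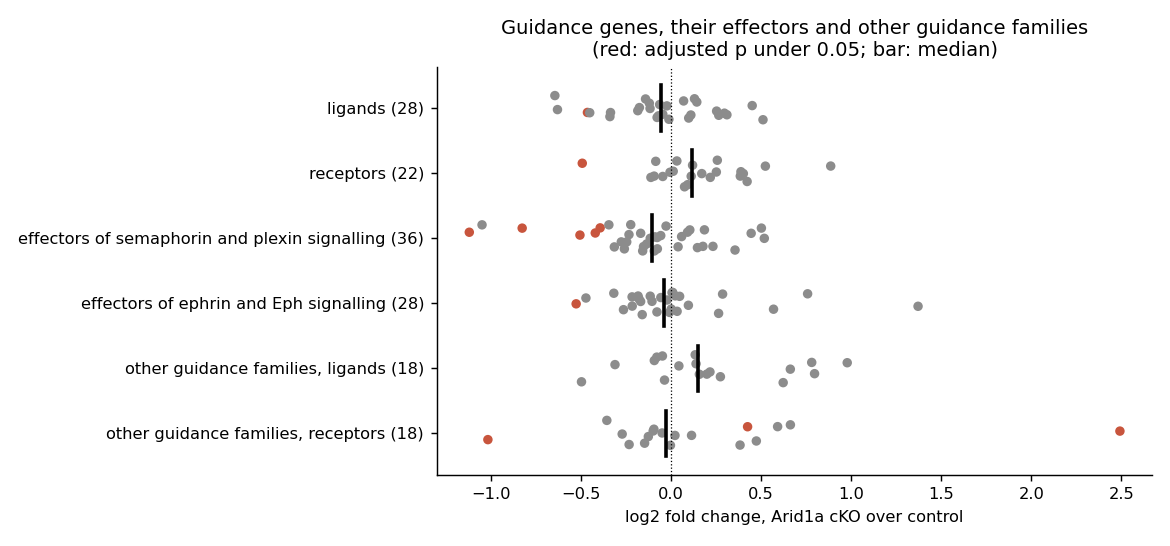
Log2 fold change of each tested gene (points, red where past the threshold) among the 28 ligands, the 22 receptors, 2 lists of their effectors and 2 lists of other guidance families, with the median of each list as a bar. The semaphorin and plexin effectors hold 5 red points, all below 0, and the ligands and receptors hold 1 each.

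Markers of other cell types that make guidance genes were read beside these results. Of 20 dental epithelium genes 2 rose (Epcam and Cldn4) and 0 fell, with summed levels of 1635 to 5188 CPM in the controls and 1820 to 3652 CPM in Arid1a cKO. Of the 20, 15 had a positive and 5 a negative log2 fold change (median 0.44). At an unadjusted edgeR p under 0.05, 6 were higher and 0 lower (30%, against 22% of all genes). Within each group the summed level differed between libraries, being highest in control replicate 3 and Arid1a cKO replicate 1. These are also the libraries without Y-linked counts, so that epithelium level and sex are confounded. Odam, an enamel-stage gene, was below 1 CPM in every library. In a fit with the mean level of these 20 genes as a covariate, Efnb1 and Plxnd1 remained past the threshold and Sema3e joined them. That fit cannot fully tell an adjustment for epithelium from one for sex. Schwann cell and nerve markers summed to 242 to 395 CPM in the controls and 414 to 518 CPM in Arid1a cKO. Of these 13 markers 1 passed as higher (Egr2) and 1 as lower (Cdh19), while 11 had a positive log2 fold change (median 0.60). Among the Eph receptors 8 of 11 were positive and 0 passed the threshold. Over all 19613 genes tested 9957 were positive. In the neuron list 1 of 6 tested genes rose past the threshold (Syt1), and all 6 had a positive log2 fold change (median 0.61). In that list 4 genes were below 1 CPM in every library, namely Elavl4, Nefl, Nefm and Prph. Macrophage markers had 0 of 11 past the threshold by edgeR (1 at an unadjusted p under 0.05), and all 11 had a positive log2 fold change (median 0.32). Their summed levels were 527 to 738 CPM in the controls and 636 to 1003 CPM in Arid1a cKO. Of 13 odontoblast markers 3 fell (Vdr, Nes and Alpl) and 0 rose, and their summed level, 14475 to 36732 CPM in the controls and 23768 to 26349 CPM in Arid1a cKO, overlapped. Of the 13, 10 had a negative and 3 a positive log2 fold change (median -0.20). Of 10 pericyte and smooth muscle markers Myh11 rose and Notch3 fell. None of the 4 osteoclast and 6 skeletal muscle markers tested passed by edgeR (1 and 2 at an unadjusted p under 0.05). The part of any of these cell types in the values of single members was not tested.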

How the data were processed

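RNA of 6 incisor samples was sequenced with single-end reads of 75 cycles, per the labels' protocols. The submitters' processing notes name STAR 2.6.1d, Partek and the build mm10. The sources used here do not give the annotation release, library kit or strand setting. The authors deposited estimated counts (not whole for every gene) of 25703 genes, none with a total under 10. A second deposited table holds normalized signal for 21456 genes, in which each value equals the count plus 1 divided by 1 factor per library, to within 0.000674%.

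Estimated counts were rounded. Genes were kept with filterByExpr (minimum count 10, 19613 genes), scaled by TMM (factors 0.961 to 1.037), and genotypes were compared without covariates by edgeR's quasi-likelihood F test (robust, two-sided). SE is the absolute log2 fold change over the square root of F. Exon lengths are the union of GENCODE M21 exons, which matched all 52 members. Versions were edgeR 4.0.16, DESeq2 1.42.0, limma 3.58.1, R 4.3.3 and Python 3.11.15, and the count test was tested on simulated data.

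Members were taken by symbol alone, without use of their values. The choice of these families, of the lists and of the alternatives was made with earlier results of these data known. Named members are those past the threshold and, in each class, those with the smallest p and the highest level per kb. Pathway and marker genes are named where they passed the threshold. Other members named for a value were chosen after it was seen. RefSeq promoter windows were found for 44 of the 50 protein-coding members. The shares of guidance gene windows with a motif were counted without Sema6a. Per the labels' protocols the libraries were sequenced as pairs of samples, but which samples form a pair is not given in the labels. Replicates are numbered in accession order, and all tests are unpaired, so that any pairing is ignored. Depth was 27300932 to 37908478 counts, so that beyond low genes the spread between libraries limits precision.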

Additional observations from a re-analysis of the deposited data

How the results depend on the processing

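Efnb1 stayed lower and past the threshold in 16 alternatives, at log2 fold changes of -0.48 to -0.44. Plxnd1 kept its direction in these 16 and its call in 12. With upper quartile normalization 1 member passed as higher (1 ligand), and with a minimum of 1 CPM in all libraries 2 did (2 ligands). With DESeq2 6 members passed as higher (3 ligands, 3 receptors) and 4 as lower (3 ligands). Adding the mean level of dental epithelium genes as a covariate, 2 ligands passed as lower. In the 4 libraries with Y-linked counts, chosen after seeing the data, 0 members, 0 ligands and 0 receptors passed as lower (177 genes passed in all), Efnb1 at an adjusted p of 0.0523 and Plxnd1 at 0.11 by edgeR. Leaving out each library in turn gave 0 to 1 members higher and 1 to 3 lower. For ligands these counts were 0 to 0 and 1 to 2, for receptors 0 to 1 and 0 to 1. Ephb4 ranged from -0.073 to 0.023 and turned positive only without control replicate 2. RLE, limma-voom, unrounded counts, no filter, and limma on the deposited signal with a pseudocount of 1 or 0.5 gave 0 members higher and 2 lower each.

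Among the effectors of semaphorin and plexin signalling the count of lower genes was 8 with DESeq2 and 2 in the 4 libraries with Y-linked counts, and 2 to 4 with each library left out. For ephrin and Eph effectors it was 3 with DESeq2, 2 with no filter, 2 with the 1 CPM minimum, 0 in the 4 libraries, and 0 to 1 with each library left out. For the other guidance ligands DESeq2 gave 2 higher and 1 lower. For the other guidance receptors it gave 1 higher and 3 lower, the 1 CPM minimum and the epithelium covariate gave 1 higher each, the 4 libraries gave 0 higher, and leaving out each library gave 0 to 2 higher and 0 to 1 lower. Where a count changed, the cause was not tested beyond the fewer samples or genes of that setting. No paired analysis was possible because the labels mention pairs of samples without saying which belong together, the replicate numbers follow accession order, and the sample titles share fewer than 2 numbers between the genotypes. Whether a paired test would change a call was not tested.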
